A study of Homo sapiens with 6 samples.

Results

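COPII is the protein coat that buds vesicles from the endoplasmic reticulum for transport to the Golgi. The 10 genes described here encode its outer layer (SEC31A and SEC13), its inner layer (SEC23A, SEC23B and the cargo-binding SEC24A, SEC24B, SEC24C and SEC24D), the scaffold of the exit sites where the coat assembles (SEC16A), and CTAGE5, a membrane protein of these sites that binds SEC23 and takes part in the export of large cargo. Every row of the deposited table of cassette exons that carried 1 of these 10 gene symbols was taken, which gave 48 of 24725 rows. SEC31A had 17 of them, SEC24C 8, SEC16A 6, CTAGE5 5, SEC24D 4, SEC23A 3 and SEC13 2, and SEC23B, SEC24A and SEC24B had 1 each. SEC31A and CTAGE5 were selected on their inclusion rates in these same samples, so their values are a description and no test is read from them. The other 8 genes were added for their place in the coat.

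The cells were MDA231-BrM2a, a subline of the triple-negative breast cancer line MDA-MB-231 selected for brain metastasis. The 3 Control cultures were a non-clonal population stably carrying the empty vector pRetroX-Tight-Pur, and the 3 RBM47 cultures were a single clone (wt#10) in which the same vector drives Flag-tagged wild-type RBM47, an RNA-binding protein, from a doxycycline-inducible promoter. Doxycycline was given to every culture, at 10 ng/ml for 3 days, before polyA-selected RNA was sequenced. The transgene and the clone cannot be told apart, since every RBM47 culture is of that clone. The labels do not say that the 3 samples of a group were grown separately. A p-value from the rates of single samples thus measures only the spread between these samples, which may be technical. A Fisher p, computed on summed reads, sees no spread between samples and covers counting error only.

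A cassette exon can be joined to its neighbours or skipped. Its inclusion rate, from 0 to 1, compares the reads over its 2 junctions with the reads over the skipping junction. Where it was computed here from summed reads, the latter were counted 2 times in the denominator. The rate of each culture is the authors' value. Each row is an event, that is, 1 exon between 1 pair of neighbours, so an exon with several possible neighbours has several rows that share reads. Reads were given as sums over the 3 cultures of a group, 26498401 for Control against 24116982 for RBM47 over the whole table, and the depth of each culture is unknown. A rate computed from these sums should lie within the range of the cultures. In Control it lay above that range in all 4 SEC31A events that pass the criteria below. It did so in both groups of a SEC13 event whose rates were used as deposited. The authors' rates thus do not follow this formula on these reads in every event, and the reason was not tested. RBM47 replicate 2 stood apart, with 14.8% of its rates exactly 0 or 1 over 6000 events of intermediate rate, against 6.10% to 7.63% in the other 5 samples. RBM47 itself and the epithelial markers EPCAM and CDH1 had no row in the table and were not analysed here. Of markers of the line, the mesenchymal gene VIM had 741835 junction reads in the Control group against 507943 in the RBM47 group, and CD44 had 25226 against 13434. The epithelial keratin KRT8 had 3199 against 6358 reads, and ERBB2 1260 against 1113. These reads are pooled, and their part in the inclusion rates was not tested.

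In 11 of the 48 rows, 10 of SEC31A and 1 of CTAGE5, the rates of the 3 cultures did not average to the group averages printed in the same row. Rates were taken from the row that carried those averages, both of them in 6 rows and the RBM47 average alone in 5. All 5 events that pass the criteria below are of the second kind, and in them the Control rates used here do not average to the printed Control average. For the 4 SEC31A events the printed Control averages are 0.00254, 0.312, 0.238 and 0.372 where the rates used average to 0.0827, 0.354, 0.0639 and 0.469, and for CTAGE5 the printed value is 0.534 against 0.110. On the printed averages the 4 SEC31A events keep a higher rate in RBM47 cells, by 0.318 to 0.617, and the CTAGE5 event has a difference of 0.152, under the limit. The read totals, which played no part in the matching, gave the same direction as the matched rates in 11 of 11 rows and the same direction as the rates left in place in 3 of 11. With the rates left in place, 4 SEC31A events passed and all 4 were lower with RBM47, with differences from -0.256 to -0.537, so the direction of these events rests on the matching and on the read totals.

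The exons that the results turn on are shown next, on the sense strand of GRCh37 with the annotation of GENCODE 44, each with 60 bases of the intron before it and 20 bases of the intron after it. Capitals mark the exon. The first SEC31A exon, 39 bases at chr4:83752090-83752128 (minus strand), was the most changed exon of the gene. The next pair are a 78-base exon at chr4:83782784-83782861 and a second 39-base exon at chr4:83783687-83783725, further towards the 5′ end of the gene. The CTAGE5 exon of 27 bases lies at chr14:39761884-39761910 (plus strand) in the gene that the annotation calls MIA2, and the SEC16A exon of 75 bases at chr9:139340097-139340171 (minus strand) is shown as the exon with the lowest limma p among the genes not picked for their rates.
SEC31A first 39-base exon: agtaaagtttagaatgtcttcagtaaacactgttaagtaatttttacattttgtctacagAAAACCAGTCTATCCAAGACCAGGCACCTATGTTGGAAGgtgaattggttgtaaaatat
SEC31A 78-base exon: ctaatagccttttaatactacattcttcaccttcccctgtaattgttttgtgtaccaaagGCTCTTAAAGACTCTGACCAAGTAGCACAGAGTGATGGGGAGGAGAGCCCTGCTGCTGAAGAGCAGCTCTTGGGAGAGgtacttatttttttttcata
SEC31A second 39-base exon: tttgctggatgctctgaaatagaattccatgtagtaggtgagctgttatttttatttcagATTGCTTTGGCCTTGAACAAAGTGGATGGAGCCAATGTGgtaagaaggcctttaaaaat
CTAGE5 27-base exon: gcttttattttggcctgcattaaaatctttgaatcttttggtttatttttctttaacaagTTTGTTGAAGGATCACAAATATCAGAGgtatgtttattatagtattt
SEC16A 75-base exon: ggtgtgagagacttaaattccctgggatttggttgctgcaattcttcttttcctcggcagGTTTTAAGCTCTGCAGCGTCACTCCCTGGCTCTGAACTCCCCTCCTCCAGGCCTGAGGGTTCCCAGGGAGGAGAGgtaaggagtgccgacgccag

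All 5 exons are annotated as coding, have a length that is a multiple of 3, contain no in-frame stop codon, and are flanked by AG before and GT after the exon. The first SEC31A 39-base exon is in 1 annotated transcript and the CTAGE5 27-base exon in 1, whereas the 78-base and the second 39-base exons of SEC31A are in 10 each. A run of 6 T (TTTTTT, searched on the sense strand only, in the 100 bases on each side) stands before the CTAGE5 27-base exon and the SEC16A 75-base exon, and after the SEC31A 78-base exon. Such a run is present before 17.5% and after 10.7% of 189562 internal exons of protein-coding transcripts. The bases before the first SEC31A 39-base exon held 33% T against a mean of 32.5% over all these exons, and those before the CTAGE5 27-base exon held 52%. The bases after the SEC31A 78-base exon held 44% T against a mean of 29.3%.

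Across the 48 events, 5 passed the criteria of the study, which are a Fisher p of at most 0.05 on the summed reads, 10 or more reads and mean rates that differ by 0.2 or more. All 5 were higher in RBM47 cells, 4 in SEC31A and 1 in CTAGE5. Of all 24708 events 1.41% passed, and 0.615% passed with a higher rate in RBM47 cells. A replicate-level test with limma, over 6000 events with a mean rate of 0.1 to 0.9, also called these 5 of the 18 member events it covered, against 1.53% of all events covered. Without Control replicate 2 the study criteria gave 4 member events and limma 3, and without RBM47 replicate 2 they gave 5 and 4. The CTAGE5 event was not called by limma when any 1 of the 6 samples was left out. Nothing is read from these counts, since the genes of all 5 events were picked for them. The median absolute difference was 0.0259 over the 48 events and 0.0114 over all events.

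SEC31A, which forms the outer cage of the coat together with SEC13, included its first 39-base exon far more in RBM47 cells. This exon lies before a 59-base exon and after an exon annotated in 2 lengths, 342 and 297 bases. The 2 lengths share their 5′ end, and their 3′ ends differ by 45 bases. The table lists the first 39-base exon once for each form of the exon of 2 lengths and once directly after the 124-base exon further upstream. The forms are called A and B here, since the reads do not say which is the longer. Next to form A (83969176 to 83982657 in the authors' coordinates, for which no build is named) its rate was 0.0994, 0.0885 and 0.0602 in Control and 0.588, 0.562 and 0.708 in RBM47 replicates 1 to 3. The groups did not overlap and their means were 0.0827 ± 0.0202 and 0.620 ± 0.0781 (SD, n = 3), a difference of 0.537.

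Next to form B the rate was 0.488, 0.273 and 0.302 in Control and 0.928, 0.838 and 0.860 in RBM47 cells. Control replicate 1 was the highest of its group, and the groups did not overlap, with a difference of 0.521. This event rested on the fewest reads of the 4, 131 in Control against 489 in RBM47 cells. Of these, 91 and 430 join the 39-base exon to the 59-base exon, whatever exon comes before. Only 2 and 29 reads join it to form B, and 38 and 30 skip it. Directly after the 124-base exon (83969176 to 83984685) the rate was 0.0850, 0.0496 and 0.0571 in Control and 0.588, 0.672 and 0.584 in RBM47 cells, a difference of 0.551. These 3 events therefore describe 1 exon in 3 surroundings and share the reads that join it to the 59-base exon.

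The exon of 2 lengths itself had higher rates in RBM47 cells in the 2 events that have the 59-base exon as the next neighbour. Form B between the 124-base and 59-base exons had rates of 0.489, 0.424 and 0.494 in Control and 0.719, 0.655 and 0.695 in RBM47 cells, a difference of 0.221 that lay just inside the limit of 0.2. Form A in the same place had 0.608, 0.531 and 0.598 in Control and 0.766, 0.752 and 0.725 in RBM47 cells, and its difference of 0.169 lay just outside. Neither pair of groups overlapped. Both events count the junction to the 124-base exon, which the 2 forms share. By the split into single joins given below, 38 reads in Control and 30 in RBM47 cells joined form B to the 59-base exon. For form A these were 365 and 200, so each form had fewer such joins in RBM47 cells. Joins to the 124-base exon, 1356 to 1591 per form and group, are counted whatever exon follows. Skipping reads were 327 in Control and 142 in RBM47 cells. The higher rates thus do not show more joins of the exon to the 59-base exon, and they do not tell the 2 forms apart. Rates computed from the summed reads put form B outside the limit as well, at 0.681 in Control and 0.851 in RBM47 cells, a difference of 0.170. Both lie above every culture of their group. Without Control replicate 2 the difference of the mean rates for form B was 0.199.

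Measured against the first 39-base exon as the neighbour, the rates of the same exon were on average slightly lower in RBM47 cells. Form A had 1.00, 0.966 and 0.989 in Control and 0.953, 0.969 and 0.955 in RBM47 cells, and form B 1.00, 0.963 and 0.989 against 0.940, 0.947 and 0.939. The groups overlapped for form A and did not for form B. These rates also count the reads that join either form to the 124-base exon, 1356 to 1591 per form and group, whatever exon follows the form. The skipping reads, from the first 39-base exon straight to the 124-base exon, were 4 in Control and 21 in RBM47 cells. Joins of the first 39-base exon to form A or B were 28 and 307. The lower rates thus do not show less use of either form before the first 39-base exon.

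**Figure D1:**
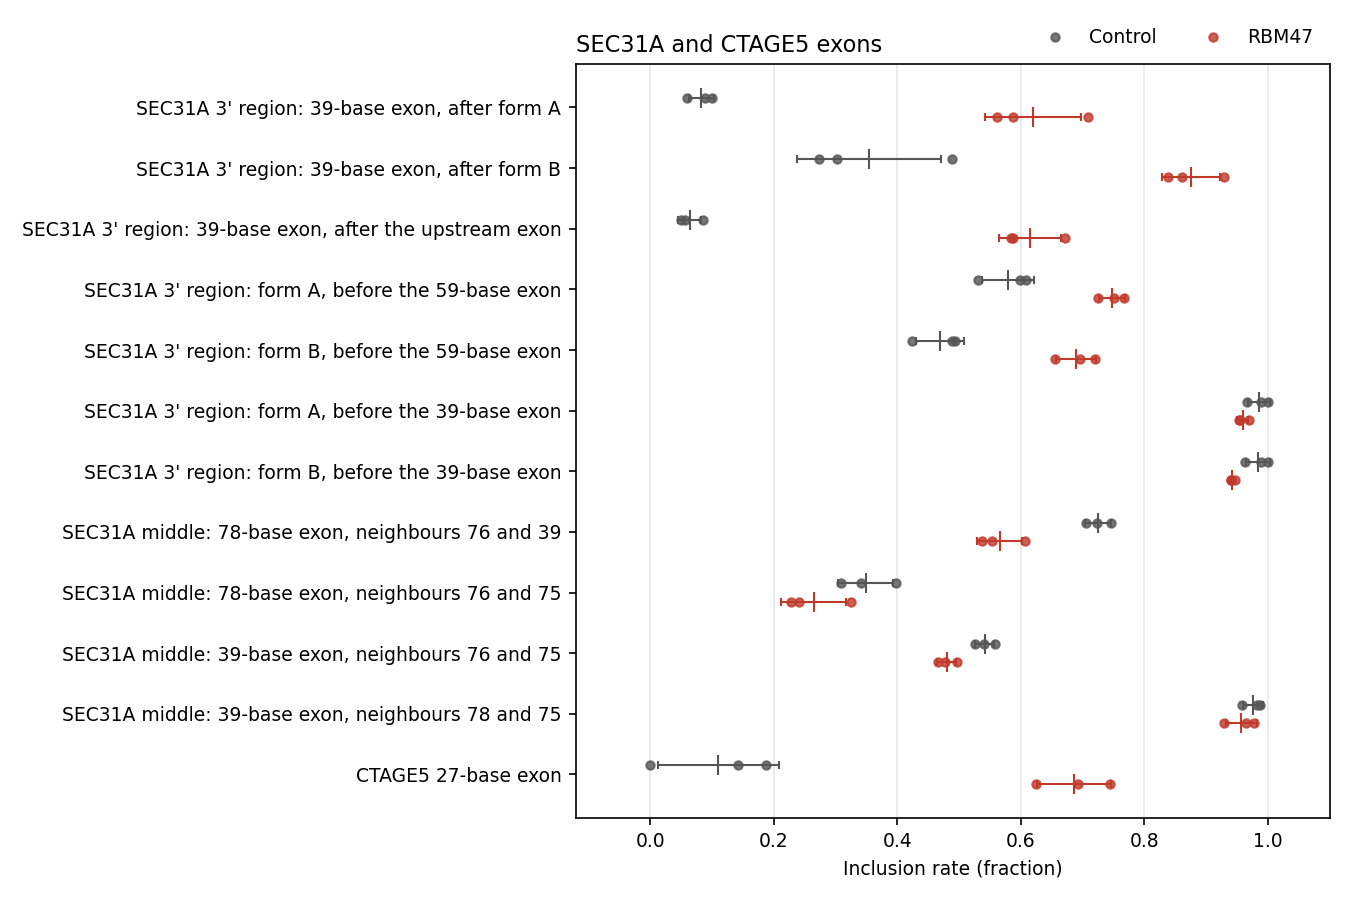
Inclusion rate (fraction, horizontal axis) of 11 SEC31A events and the CTAGE5 27-base exon, with 1 point per culture, a tick for the group mean and bars of 1 SD (n = 3). Forms A and B are the exon of 2 lengths, the upstream exon is the 124-base exon, and neighbours are given by their length in bases. The first 39-base exon of SEC31A and the CTAGE5 exon lie at 0 to 0.488 in Control and at 0.562 to 0.928 in RBM47 cells, and the 4 events in the middle of SEC31A have lower means in RBM47 cells.

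The read totals of these 7 events are sums over shared junctions, and they can be split into single exon-to-exon joins. Of 12 ways to assign the events to exons, 1 added up in both groups. By this count the 59-base exon was joined to the 39-base exon by 91 of 821 reads in Control (11.1%, exact 95% binomial interval 9.02% to 13.4%) and by 430 of 802 in RBM47 cells (53.6%, 50.1% to 57.1%). Joins of the 59-base exon to form A or B went from 403 reads (49.1%) to 230 (28.7%), and joins straight to the 124-base exon, with both exons skipped, went from 327 reads (39.8%) to 142 (17.7%). The number of reads into the 59-base exon hardly differed, so the shares at this exon moved between the 3 routes. Joins on the other side of the same exons did not balance these counts. The 39-base exon had 32 joins to exons before it in Control and 328 in RBM47 cells, against 91 and 430 to the 59-base exon. Joins of form A or B to the exons that follow were 431 and 537. Reads joining form A to the 124-base exon were 1359 and 1591. The reason was not tested, and the shares describe the joins of the 59-base exon only. These shares pool the cultures of a group, their intervals cover counting error only, and they have no replicate check.

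Where the 39-base exon was used, it was joined to form A or B by 28 of 32 reads in Control (87.5%, 71.0% to 96.5%) and by 307 of 328 in RBM47 cells (93.6%, 90.4% to 96.0%), and these intervals overlap. Form B made up 9.28% of the joins of A and B to the exons that follow in Control and 11% in RBM47 cells, again with overlapping intervals (6.71% to 12.4% and 8.47% to 13.9%). Whether the balance between the 2 ends of the longer exon differed was not tested, since these intervals pool the cultures and cover counting error only. In these pooled shares the larger difference was in the use of the 39-base exon, with fewer reads that skip both exons.

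In the middle of SEC31A a second pair of cassette exons had lower mean inclusion rates in RBM47 cells. The 78-base exon, between the second 39-base exon and a 76-base exon (83997865 to 84002748), had rates of 0.746, 0.706 and 0.723 in Control and 0.606, 0.537 and 0.553 in RBM47 cells, a difference of -0.159. The groups did not overlap, but the difference is smaller than 0.2. With the 75-base exon as its upstream neighbour the 78-base exon had 0.397, 0.309 and 0.341 against 0.325, 0.228 and 0.241, and the groups overlapped. The second 39-base exon had 0.557, 0.527 and 0.540 in Control against 0.466, 0.496 and 0.477 between the 75-base and 76-base exons, without overlap, and a rate of 0.957 or more on average in both groups when the 78-base exon followed it.

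The same split into single joins gave 1 assignment out of 2 that added up. From the 75-base exon, reads went to the second 39-base exon in 885 of 1361 cases in Control (65.0%, 62.4% to 67.6%) and 517 of 929 in RBM47 cells (55.7%, 52.4% to 58.9%). Reads that skipped both exons made up 33.6% (31.1% to 36.2%) and 42.5% (39.3% to 45.8%). From the second 39-base exon, 202 of 801 reads passed over the 78-base exon in Control (25.2%, 22.2% to 28.4%) and 209 of 490 in RBM47 cells (42.7%, 38.2% to 47.2%). No event of this pair met the study criteria, and the shares pool the cultures of a group with no replicate check. Whether single messages combine the exons of both places is not measured by junction reads.

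**Figure D2:**
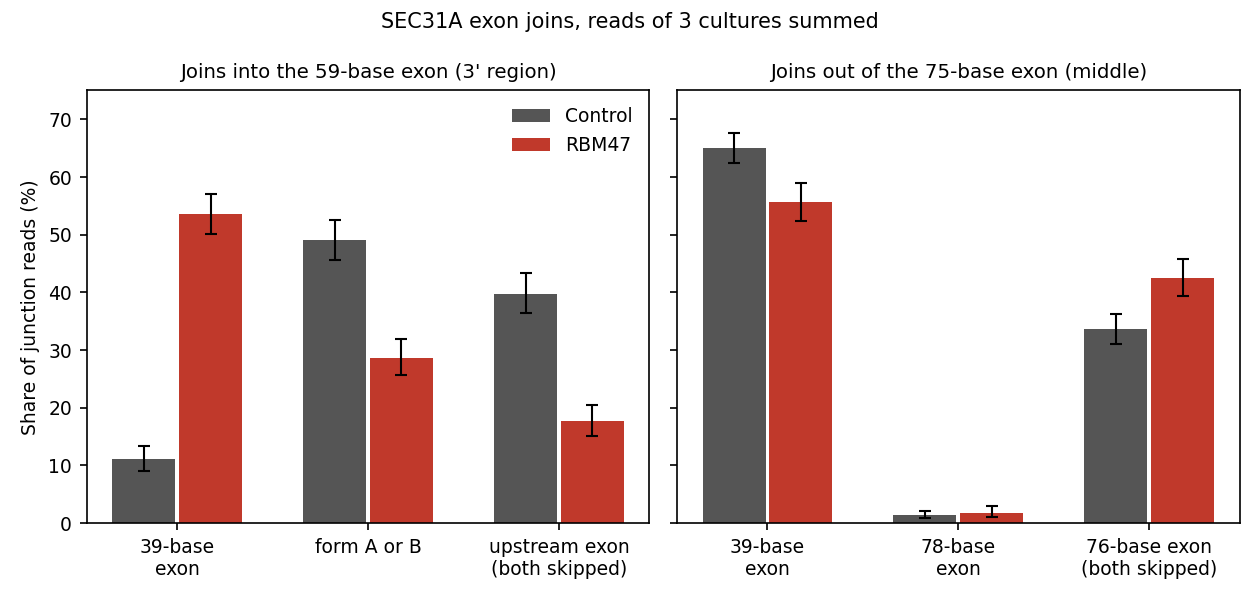
Share of junction reads (%, vertical axis) that joined the 59-base exon to each possible exon before it (left panel, where the upstream exon is the 124-base exon) and the 75-base exon to each possible downstream exon (right panel) of SEC31A, summed over 3 cultures of a group, with exact 95% binomial intervals. Joins of the 59-base to the 39-base exon were 11.1% in Control and 53.6% in RBM47 cells, and skipping of both middle exons was 33.6% and 42.5%.

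The other 6 SEC31A events were close to 0 or 1 in both groups and differed by at most 0.0141. The 93-base exon upstream of the 124-base exon, which is T-rich on its 5′ side (56%), was included at 0.0587, 0.0452 and 0.0677 in Control, and in RBM47 cells 0.0513, 0.0986 and 0.0639. The 72-base exon nearest the 3′ end had mean rates of 0.982 and 0.980. The 4 events nearest the 5′ end had means of 0.964 to 0.99 in Control and 0.973 to 0.993 in RBM47 cells, except for 1 that was at or near 0 in both.

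Among the events of other genes whose pattern was most like the form B event of SEC31A, measured as the mean absolute difference over the 6 rates, were those of FAM126A (0.0405), EMC8 (0.0463), PRMT2 (0.0484) and TBRG1 (0.0524). Their mean rates were 0.443 to 0.525 in Control and 0.628 to 0.684 in RBM47 cells, against 0.469 and 0.690 for SEC31A. The form B event was used for this list because it had the most reads of the SEC31A events that passed the criteria.

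CTAGE5 had 1 event that passed. Its 27-base exon (38829973 to 38832335) had rates of 0, 0.188 and 0.143 in Control and 0.744, 0.692 and 0.624 in RBM47 cells, with means of 0.110 ± 0.0979 and 0.687 ± 0.0601 (SD, n = 3). The groups did not overlap, and the difference was 0.576. On the averages printed in its row, of which the Control one was set aside, the difference is 0.152 and the event does not pass. The summed reads were few in Control, 10 including and 23 skipping, against 117 and 28 in RBM47 cells, which gives rates of 0.179 and 0.676. The annotation places exactly 1 exon between the neighbours of this event, which is how the 27-base exon was identified.

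The remaining CTAGE5 events were lower on average in RBM47 cells. The 129-base exon had 0.867, 0.765 and 0.765 in Control and 0.543, 0.714 and 0.775 in RBM47 cells, so the groups overlapped. A pair of events share outer ends, with exons of 78 and 93 bases as candidates. Their means were 0.974 and 0.981 in Control and 0.880 and 0.896 in RBM47 cells, on 56 to 83 reads per group. The groups did not overlap, but both events rest on the same 1 skipping read in Control and 4 in RBM47 cells. The fifth event, a 22-base exon, had means of 0.991 and 0.967.

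In the 8 genes that were not picked for their rates, no event passed either test. They had 26 events, of which 13 had a mean rate over 0.9, 5 under 0.1 and 8 in between, and the latter were tested by limma. None of the 8 had an adjusted p under 0.05 (the smallest was 0.478) or an unadjusted p under 0.05 (the smallest was 0.0762), whereas 12% of the 6000 events had an unadjusted p under 0.05. The groups overlapped in all 8 events, and over the 6000 events 17.9% had groups that did not overlap. Fisher's test on the summed reads had a p of at most 0.05 in 2 of the 26, both in SEC16A, against 3568 of all 24708 events. The median absolute difference of the 26 events was 0.00898, and the largest was 0.153.

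SEC13, the partner of SEC31A in the outer cage, had 2 events that could not be placed on annotated exons. The first had rates of 0.5, 0.745 and 0.648 in Control and 0.608, 0.639 and 0.636 in RBM47 cells (limma adjusted p = 0.99). The second had 0.333, 0.231 and 0 against 0.286, 0.3 and 0.263 on 43 and 64 reads (adjusted p = 0.738), and its summed reads gave the opposite direction. The RBM47 cultures lay within the range of the Control cultures in both.

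Of the inner layer, SEC23A had 3 events with a rate of 1 in every culture, and the 87-base exon of SEC23B had means of 0.995 and 0.99. SEC24B, which recruits cargo, had a 105-base exon at 0.619, 0.507 and 0.364 in Control and 0.538, 0.400 and 0.35 in RBM47 cells (adjusted p = 0.873), on 119 and 57 reads. An 87-base exon of SEC24C had 0.344, 0.360 and 0.412 against 0.349, 0.338 and 0.326 (adjusted p = 0.776), on 576 and 485 reads. Both exons were alternative in either group and their groups overlapped. Among the other 7 SEC24C events and the 4 of SEC24D the largest difference was -0.0318, and the SEC24A event had means of 0.0103 and 0.0530.

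SEC16A, the scaffold on which the coat assembles, had 4 tested events that describe a 60-base and a 75-base exon standing next to each other. The 75-base exon after the 95-base and before the 60-base exon had rates of 0.790, 0.770 and 0.892 in Control and 0.890, 0.954 and 0.890 in RBM47 cells, on 322 and 186 reads. Control replicate 3 reached the RBM47 values, and the difference of 0.0943 had a limma adjusted p of 0.478 (Fisher p = 0.0436 on the summed reads). The 60-base exon between the 78-base and 95-base exons had 0.736, 1.00 and 0.911 in Control and 0.750, 0.667 and 0.773 in RBM47 cells, a difference of -0.153 with an adjusted p of 0.478. Between the 78-base and 75-base exons it had 0.578, 0.818 and 0.689 against 0.560, 0.571 and 0.628 (adjusted p = 0.594). With the 78-base and 95-base exons as neighbours the 75-base exon had 0.815, 1.00 and 0.941 against 0.846, 0.895 and 0.851 (adjusted p = 0.642), so its direction depended on the neighbours compared and the groups overlapped in all 4 events.

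Split into single joins, 58 of 179 reads out of the SEC16A 75-base exon passed over the 60-base exon in Control (32.4%, 25.6% to 39.8%) and 45 of 105 in RBM47 cells (42.9%, 33.2% to 52.9%). The intervals overlap. A SEC16A event further upstream, with exons of 122 and 2487 bases as candidates, had 0.0159, 0.161 and 0.102 in Control and 0, 0 and 0.0182 in RBM47 cells. Its Fisher p was 0.000426, on 16 including against 66 skipping reads in Control cells and 1 against 67 in RBM47 cells, while Control replicate 1 lay among the RBM47 values. Its mean rate was too low for the limma test.

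**Figure D3:**
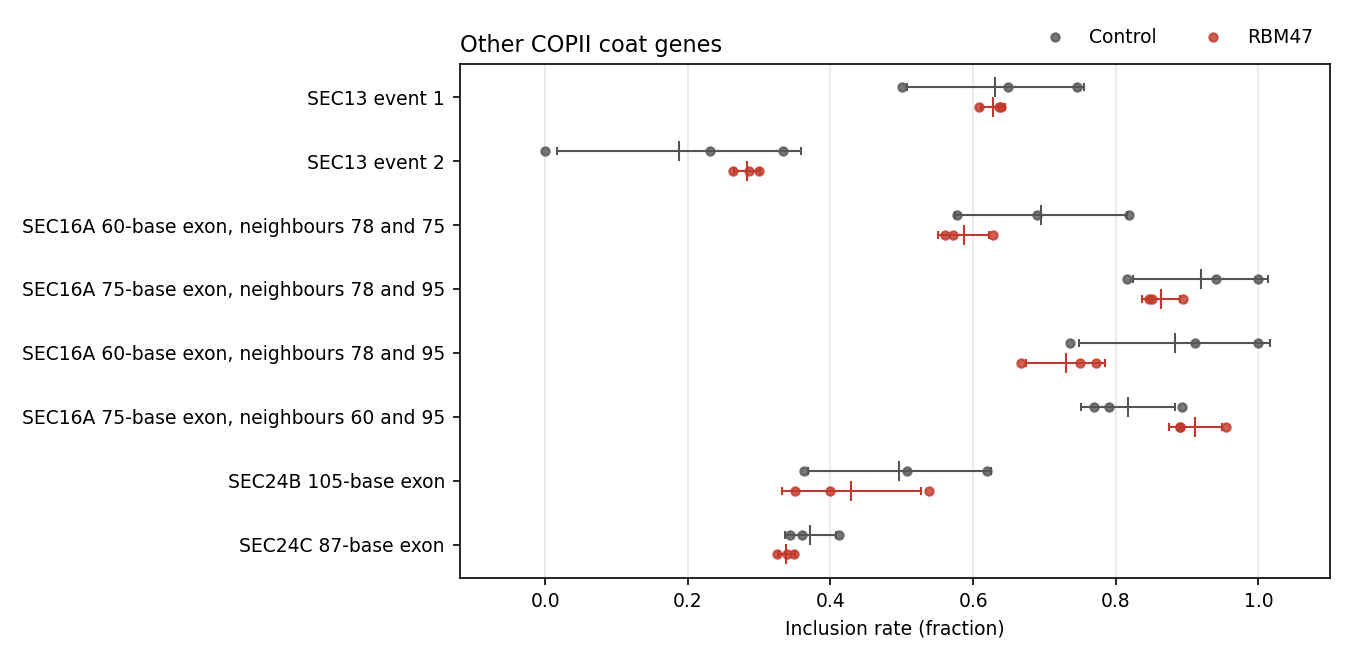
Inclusion rate (fraction, horizontal axis) of the 8 tested events of SEC13, SEC16A, SEC24B and SEC24C, with 1 point per culture, a tick for the mean and bars of 1 SD (n = 3). Control and RBM47 cultures overlap in each of the 8 events.

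Junction reads also give a rough level of each gene, pooled over the 3 cultures of a group and with no test. Fewer cells with a message and less message per cell cannot be told apart in such bulk data. The 3 SEC23A events had 683, 755 and 248 reads in Control, against 304, 332 and 116 in RBM47 cells, ratios of 0.445, 0.440 and 0.468, against 0.910 for the whole table. The SEC23B event had 2304 and 3445 reads, a ratio of 1.5. The 2 forms of the same coat subunit thus stood on opposite sides of the table's ratio, and among 5975 genes with at least 500 reads 5.49% had a lower ratio than SEC23A and 96.2% a lower one than SEC23B.

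SEC24B had a ratio of 0.479 and SEC24A of 0.719, each on 1 event. The median ratio was 0.882 over the 4 events of SEC24D and 1.09 over the 8 of SEC24C, whose single events ran from 0.708 to 1.19. SEC16A events had ratios of 0.557 to 0.892, SEC13 events of 1.12 and 1.49, and CTAGE5 events of 1.22 to 4.39, the highest being the 27-base exon. Ratios of a single event move with the inclusion of its exon, because an included exon has more junctions than a skipped one.

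Within SEC31A the ratio differed along the gene. It was 0.917 in the event nearest the 3′ end, 0.942 to 3.73 in the 7 events around the first 39-base exon, 0.863 at the 93-base exon, 0.542 to 0.726 in the 4 events of the middle pair and 0.619 to 0.679 in the 4 events nearest the 5′ end. Events towards the 5′ end thus had fewer reads in RBM47 cells relative to Control than events near the 3′ end. The part of this in the inclusion rates was not tested.

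**Figure D4:**
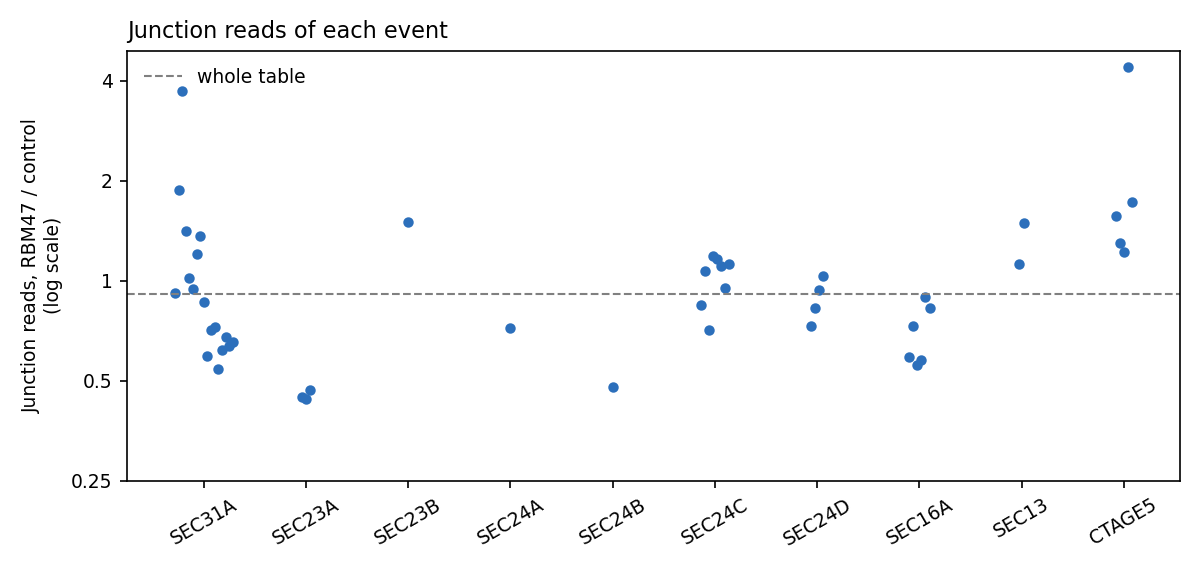
Ratio of junction reads in RBM47 to Control (log axis) for each of the 48 events, by gene, with events of a gene in order of table position. The dashed line is the ratio of the whole table, 0.910, and the 3 SEC23A events lie at 0.440 to 0.468 and the SEC23B event at 1.5.

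Other genes of transport between the endoplasmic reticulum and the Golgi were taken from a list of 90 genes, of which 69 had 222 events in the table. By the study criteria 3 events passed, 1 higher and 2 lower in RBM47 cells, which is close to the 1.41% of the whole table, and the median absolute difference was 0.00744. Of 32 events tested by limma, 5 had an unadjusted p under 0.05 and 1 was called. The 81-base exon of GOLGA2, a Golgi matrix protein that tethers vesicles, had rates of 0.622, 0.667 and 0.647 in Control, and in RBM47 cells 0.337, 0.185 and 0.286. The groups did not overlap, and the difference of -0.376 had an adjusted p of 0.0113 (limma). The other GOLGA2 event, in a row aligned as deposited, went the opposite way. Its means were 0.393 in Control and 0.533 in RBM47 cells, without overlap, and it did not pass (limma adjusted p = 0.211).

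The 2 other events that passed the study criteria were in subunits of the TRAPP complex, which tethers vesicles at the Golgi. A 27-base exon of TRAPPC9 had rates of 0.231, 0.182 and 0.333 in Control and 0.472, 0.714 and 0.636 in RBM47 cells (difference 0.359, limma adjusted p = 0.211). An 18-base exon of TRAPPC13 had 0.514, 0.529 and 0.763 against 0.413, 0.368 and 0.402 (difference -0.208, adjusted p = 0.293). The groups did not overlap in either, but neither passed the replicate-level test. Their rows were also among those matched by the RBM47 average alone, as was that of GOLGA2, and the read totals had the same direction as the matched rates in all 3. On the averages printed in the row TRAPPC9 had 0.627 in Control against 0.608 in RBM47 cells and does not pass, TRAPPC13 had 0.961 against 0.394, and GOLGA2 had 0.683 against 0.269. The call in GOLGA2 was lost without Control replicate 2 (adjusted p = 0.0539) and without Control replicate 3 (0.0655), and the adjusted p ranged from 0.0158 to 0.0655 over its 8 alternatives.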

How the data were processed

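The deposited table lists 24725 cassette exon events. Each sample's inclusion rate and the group averages are fractions computed by the authors, and the including and skipping reads are counts that the authors summed over each group. The submitters' processing notes name TopHat. For RNA-seq of the cell lines the methods give hg19 and the aligner STAR, but no build is named for this table. Of the member genes' outer ends, 0 lay on exon ends of the same gene in GRCh37 (hg19) as printed. The authors' difference, odds ratio and Fisher p columns were not used. In 1392 rows (5.63%) the rates did not average to the printed averages within 3e-09. They were re-matched by both averages in 1122 rows and by the RBM47 average alone in 253, and 17 were left out.

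Fisher's exact test (two-sided, scipy 1.17.1) was run on the summed counts. Counts per sample were not used here, so limma 3.58.1 (R 4.3.3) was run on the rates of events whose mean rate was 0.1 to 0.9, after an arcsine square root transform and with the variance allowed to follow log2 reads. Benjamini-Hochberg adjustment covered all 6000 such events, and events were called where the adjusted p was under 0.05 and the means differed by 0.2 or more. The code was tested on simulated data. Exons were identified by matching the pattern of outer ends of a gene's events to GENCODE 44 exon ends on GRCh37 (16 of 17 ends in SEC31A, 7 of 7 in CTAGE5, 8 of 8 in SEC16A) after 1 shift per gene, which for a gene with 1 event rests on 2 ends.

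Given in full are member events past the study criteria, with a mean rate of 0.1 to 0.9, or sharing outer ends with these, and other transport events past the study criteria. Part of the list of events most like the SEC31A event is not reported here. Further events were named after their values were seen. The members and lists were chosen with earlier results of these data known. Alternatives covered thresholds, transformations, row matching and leaving out each replicate.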

Additional observations from a re-analysis of the deposited data

How the results depend on the processing

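The study criteria gave 5 member events, all higher with RBM47. With a minimum difference of 0.1 they gave 7, 6 higher and 1 lower. With the rates left in the row as deposited, 4 passed and all 4 were lower. With only rows aligned as deposited 0 were left, by either test, since all 5 events are in re-matched rows, and with 1 event per pair of outer ends 3 were left. Leaving out 1 replicate at a time gave 4 to 5 events, and the lower count was without Control replicate 2, where the form B event of SEC31A fell to a difference of 0.199. By limma, 5 became 3 with no variance trend and 3 to 4 when 1 replicate was left out, the lowest without Control replicate 2. The CTAGE5 event was lost in each of these 6 fits and with no variance trend, and form B of SEC31A in the latter and without Control replicate 2. Among the other transport genes the single limma call became 0 to 1 when 1 replicate was left out (0 without Control replicate 2 or 3), and the 3 events of the study criteria became 2 to 3.

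Same-numbered replicates did not deviate together (r from -0.0225 to 0.0139 over 6000 events), so the numbers were not taken as pairs, and no sample's number is known to mark a shared batch. With a replicate block, limma called 4 of the same 5 member events, without that of CTAGE5, and the same number, 1, of the other transport events. The adjusted p-values of the 8 tested events outside SEC31A and CTAGE5 stayed above 0.05 under the block and on log2 odds. On the averages printed in the rows, 4 of the 5 member differences moved by more than the spread between replicates, to 0.617, 0.377 and 0.318 in SEC31A and to 0.152 in CTAGE5, which then does not pass. Rates from summed reads differed most for the first 39-base exon of SEC31A beside form B, 0.334 in place of 0.521. The read ratio of SEC24A was 1.67 from including reads alone in place of 0.719, on 3 and 5 such reads. Small totals limit CTAGE5 (33 reads in Control), SEC24B and SEC13, and the depth of single cultures is unknown.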
